A study of Mus musculus with 40 samples.

Results

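Cerebellar RNA of DKO mice was compared with that of CSB mice, both on a ketogenic diet (KD). The 10 libraries of these groups were taken by the library number in their titles from the 40 libraries of the series: DKO KD libraries 2, 3, 23, 24 and 47, and CSB KD libraries 13, 18, 19, 43 and 44. The labels give male mice of strain C57BL6 for every library, and total RNA that was extracted with trizol and chloroform, freed of ribosomal RNA and sequenced by the DNBseq method. They give no age, no allele and no duration of the diet. Nothing in them says whether the libraries of a group came from separate animals, so the p-values measure a spread between libraries, which may be technical. That spread was estimated within all 8 groups of the series in 1 fit, not from these 10 libraries alone. The other libraries used for comparison were 4 DKO and 6 CSB libraries on the standard diet (SD), and 6 INDY and 4 WT libraries on KD. The 6 INDY and 4 WT libraries on SD entered the same fit and the counts over the series. All values are the deposited normalised read counts (taken to be estimated reads of a gene divided by a factor per library), and differences are on the scale of log2(value + 1).

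Slc13a5, the gene known as INDY after the fly gene "I'm not dead yet", encodes a transporter in the plasma membrane that brings citrate, together with sodium, from outside the cell into the cytosol, where citrate can be cut to acetyl-CoA for the synthesis of fatty acids and sterols. CSB is the protein of Ercc6, a chromatin remodeller that acts where RNA polymerase II stalls at DNA damage, and loss of the human gene causes Cockayne syndrome, in which the cerebellum is among the affected tissues. A ketogenic diet is rich in fat and poor in carbohydrate, so that the liver makes ketone bodies, which the brain takes up and burns through acetyl-CoA. The labels do not spell out DKO, which was taken to mean loss of Slc13a5 on top of the CSB genotype. On that reading, DKO against CSB on KD asks what differs in the cerebellum when Slc13a5 is also lost, in CSB mice on that diet. Other differences between these libraries cannot be told apart from that loss.

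The 40 libraries had summed values of 23736702 to 32247186, and 25948 to 27406 genes above 0. Mitochondrially encoded genes held 9.05% to 11.9% of the sum in DKO KD libraries and 8.07% to 14.2% in CSB KD libraries, the highest in CSB KD 13. The sequencing depth is not known from these values. Genes with a value of 10 or more in 4 or more of the 40 libraries were tested, 21367 in all, with limma and Benjamini-Hochberg adjustment, and a gene was called at an adjusted p under 0.05.

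Slc13a5 (chr11:72241989-72267222, GRCm38) was nearly absent from the DKO KD libraries and had the smallest p of all tested genes. DKO KD libraries 2, 3, 23 and 24 were at 0 and DKO KD 47 was at 0.934, while CSB KD libraries 13, 18, 19, 43 and 44 held 135, 93.2, 146, 144 and 155. The groups did not overlap. Slc13a5 averaged 0.187 ± 0.418 in DKO KD libraries and 134 ± 24.2 in CSB KD libraries (SD, n = 5 each). DKO minus CSB on KD was −6.87 on the log2 scale with a standard error (SE) of 0.22 (limma adjusted p = 1.7e-23). On the standard diet the same genotypes differed by −6.83 (SE 0.22), and INDY against WT on KD by −6.64 (SE 0.22). The difference between the diets was −0.04, and was not called (unadjusted p = 0.89).

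Ercc6 (chr14:32513521-32580990) was still transcribed in both groups. DKO KD libraries 2, 3, 23, 24 and 47 held 599.5, 639, 876, 469.9 and 639, against 695, 641, 382, 596 and 634 in CSB KD libraries 13, 18, 19, 43 and 44. The ranges overlap broadly, with the highest value in DKO KD 23 and the lowest in CSB KD 19. The means were 645 ± 147 in DKO KD and 589.6 ± 121 in CSB KD libraries (SD, n = 5 each), and the log2 difference was +0.13 (95% interval −0.15 to 0.41, limma adjusted p = 1). Outside these groups Ercc6 held 490 to 663 in CSB SD and 540 to 654 in DKO SD libraries. It held 633 to 899 in WT KD, 718 to 1069.5 in INDY KD, 879 to 937 in WT SD and 735 to 1025 in INDY SD libraries. Totals were thus lower in most CSB and DKO libraries than in most WT and INDY libraries, with WT KD 25 (633) and DKO KD 23 (876) as exceptions. The labels do not say which part of the gene the CSB genotype alters, and this was not tested.

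Few other genes separated the groups. Of 21367 tested genes 6 were called, 3 higher and 3 lower in DKO KD, or 0.0281%. At an unadjusted p under 0.05 there were 218 genes higher in DKO KD (1.02%) and 151 lower (0.707%). All 5 DKO KD libraries lay above all 5 CSB KD libraries in 37 genes (0.173%) and below them in 46 (0.215%). The median log2 difference over all tested genes was 0.0026, and the median SE of a gene was 0.20. Beside Slc13a5 the called genes were Catspere1 and Ifi202b on chromosome 1, and Gm12671, Gm7336 and Gm28438, which are pseudogene copies of Gapdh or mt-Nd3. Ifi202b passed the filter on low values only through DKO KD libraries.

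**Figure D1:**
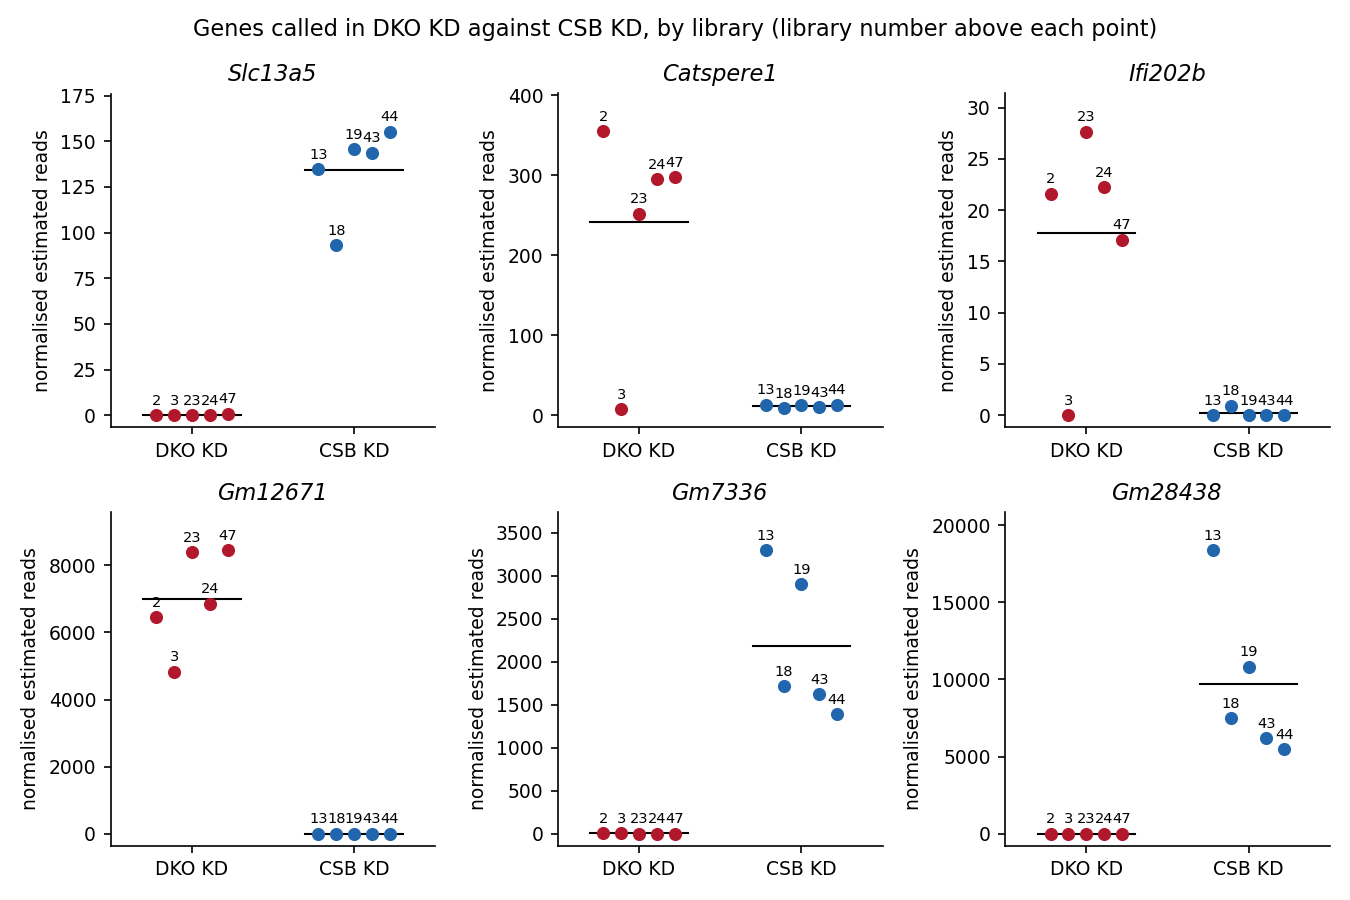
Normalised estimated reads of the 6 called genes in the 5 DKO KD libraries (left in each panel) and the 5 CSB KD libraries (right). Each point is a library with its number above it, and the line is the group mean. DKO KD 3 lies with the CSB KD libraries in Catspere1 (7.52) and Ifi202b (0), while Slc13a5 and the 3 copies separate all 10 libraries.

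Catspere1 (chr1:177808550-177962233) and Ifi202b (chr1:173962568-173982744) rose in DKO KD, and both did so in the same 4 of 5 libraries. Catspere1 is annotated as an unprocessed pseudogene, next to its relative Catspere2, a protein-coding gene related to a subunit of the CatSper calcium channel of sperm. Catspere1 held 355, 7.52, 252, 295 and 298 in DKO KD libraries 2, 3, 23, 24 and 47, against 12.9, 9.13, 12.7, 9.7 and 13 in CSB KD libraries 13, 18, 19, 43 and 44. Library 3 was below every CSB KD library and the other four DKO KD libraries were far above them. The means were 241 ± 136 in DKO KD and 11.5 ± 1.91 in CSB KD libraries (SD, n = 5 each), and the log2 difference was +3.57 (SE 0.61, limma adjusted p = 0.00996). The call of Catspere1 was lost without DKO KD 2, 23, 24 or 47 (limma adjusted p = 0.072 to 0.105) and in a fit of only these groups. Without DKO KD 3, the contrary library, the difference was +4.59 (SE 0.41, adjusted p = 3.24e-09), but that library was singled out for its values, so this is no test. In the other 30 libraries of the series Catspere1 stayed between 1.93 and 20.4, and on the standard diet DKO minus CSB was +0.45 (SE 0.63). The difference between the diets was +3.12 and was not called (limma adjusted p = 0.8).

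Ifi202b, an interferon-inducible gene of the cluster that encodes cytosolic DNA sensors, held 21.6, 0, 27.7, 22.3 and 17.1 in DKO KD libraries 2, 3, 23, 24 and 47. In CSB KD it was at 0 in libraries 13, 19, 43 and 44, and at 0.913 in library 18. Again DKO KD 3 was the exception, at 0. The means were 17.7 ± 10.6 in DKO KD and 0.183 ± 0.408 in CSB KD libraries (SD, n = 5 each). Ifi202b differed by +3.42 on the log2 scale (SE 0.59, limma adjusted p = 0.00996). It reached the filter value of 10 only in DKO KD 2, 23, 24 and 47. Ifi202b thus entered the test only through the group where it is high, and its p is no support. Its call was lost without DKO KD 2, 23, 24 or 47 (limma adjusted p = 0.072 to 0.105), with a pseudocount of 0.5 and in a fit of only these groups. Without DKO KD 3 the difference was +4.33 (SE 0.44, adjusted p = 1.17e-07), which again is no test, as that library was singled out for its values. In the other 30 libraries of the series Ifi202b was at most 4.23.

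Catspere2 (chr1:177983423-178172704) is listed here for its values by library. It held 860.0, 301, 654, 739.5 and 797 in DKO KD libraries 2, 3, 23, 24 and 47, against 327, 264, 451, 379 and 270.4 in CSB KD libraries 13, 18, 19, 43 and 44. Library 3 lay inside the CSB KD range and the other four DKO KD libraries above it. Catspere2 differed by +0.93 on the log2 scale (SE 0.23) and was not called (limma adjusted p = 0.64). Without DKO KD 3 it was +1.19 (SE 0.21, adjusted p = 0.00962), but that library was singled out for its values, so this is no test. Transcripts of Catspere1 and Catspere2 are 98.2% identical over 735 aligned bases, so reads of one could have been assigned to the other.

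Of the 24 genes with the smallest p in either direction, 7 lie on chromosome 1, and 6 of those between Copa and Bpnt1. These 13.28 Mb (chr1:172082529-185357777) were set apart after the values had been seen, so no test was made of them. Of 146 tested genes there, 13 had an unadjusted p under 0.05 in limma, beside 369 (1.73%) of all 21367 tested genes. In 8 of the 146, Copa, Pex19, Tagln2, Ifi202b, Opn3, Catspere1, Catspere2 and Nvl, the DKO KD libraries 2, 23, 24 and 47 did not overlap the CSB KD libraries. That is 5.48% of the genes in the interval, beside 218 genes or 1.02% of all tested genes. In 6 of the 8 DKO KD 3 lay within the CSB KD range, as it did in 117 of the 218 (53.7%). The ends of the interval, Copa and Bpnt1, are themselves among the 24. Beyond Bpnt1, Lyplal1 (chr1:186087731-186117310) held 160, 69.1, 115, 99.1 and 110 in DKO KD libraries 2, 3, 23, 24 and 47. It held 67, 59.8, 94.7, 59.9 and 62.5 in CSB KD libraries 13, 18, 19, 43 and 44, and was not called. The share of chromosome 1 among all tested genes is not given here.

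Copa, a coat protein of the vesicles that return cargo from the Golgi to the endoplasmic reticulum, held 5449.7, 6820.1, 5468, 5909 and 6148 in DKO KD libraries 2, 3, 23, 24 and 47, against 7368, 6799, 7422, 6505 and 6643 in CSB KD libraries 13, 18, 19, 43 and 44. Here too DKO KD 3 was the one library among the CSB KD values, and the log2 difference was −0.22 (SE 0.06). Nvl, an AAA ATPase of ribosome assembly, held 979.6, 1578, 1278, 1032 and 1099 in the DKO KD libraries and 1347, 1556, 1629, 1592 and 1608 in the CSB KD libraries, in the same order, a log2 difference of −0.39 (SE 0.12). DKO KD 3 was again at the CSB KD level. Ifi204, a neighbour of Ifi202b in the interferon-inducible cluster, went the other way: 28.6, 68.7, 36.6, 52.4 and 30.5 in the DKO KD libraries, against 90.5, 61.4, 46.8, 75.2 and 106 in the CSB KD libraries, a log2 difference of −0.82 (SE 0.27). Ifi204 shares 96.9% of 1363 aligned bases with Ifi211. Bpnt1, a phosphatase of sulfate and inositol metabolism, had a log2 difference of −0.21 (SE 0.07). None of Copa, Nvl, Ifi204 and Bpnt1 was called (limma adjusted p = 1 for each).

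**Figure D2:**
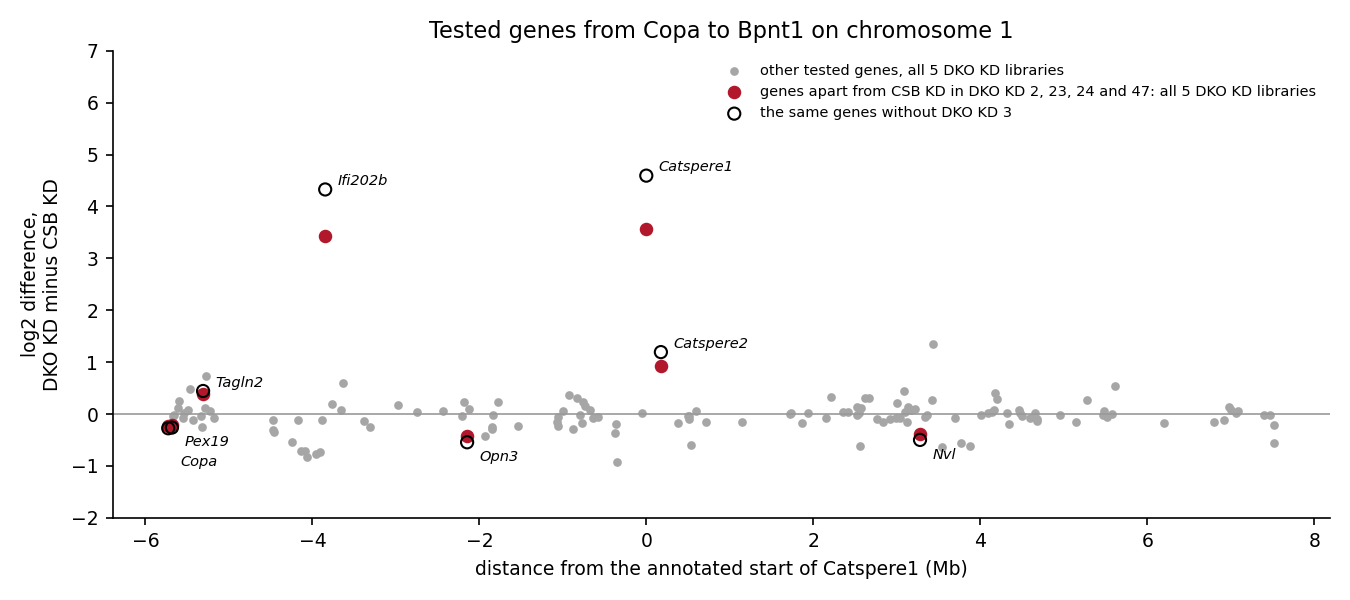
Log2 difference, DKO KD minus CSB KD, of the 146 tested genes from Copa to Bpnt1 on chromosome 1, by distance in Mb from the annotated start of Catspere1. Filled red points are the 8 genes in which DKO KD 2, 23, 24 and 47 do not overlap CSB KD, rings give the same genes without DKO KD 3, and grey points are the other genes. Without DKO KD 3 Catspere1 stands at 4.59, Ifi202b at 4.33 and Catspere2 at 1.19.

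A related value came from a copy on another chromosome, singled out after its values were seen. Gm16589 (chr8:4087658-4088575) is a processed pseudogene, 99.2% identical over 918 bases to Aida, a gene that lies in the same interval of chromosome 1. It held 103, 0, 36.5, 41.6 and 49.7 in DKO KD libraries 2, 3, 23, 24 and 47, and was listed at 0 in all 5 CSB KD libraries. Outside these groups it also held 48.6 in DKO SD 36, 47.2 in CSB SD 6 and 43.2 in CSB SD 8. It was not called (limma adjusted p = 0.292). Without DKO KD 3, the library at 0, the adjusted p was 0.00469, which is no support, as that library was left out for its values. Aida itself held 1132, 1084, 992, 1155 and 996 in the DKO KD libraries, against 1140, 915, 1129, 1067 and 915 in the CSB KD libraries, which overlap throughout.

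The other called genes are copies whose sequence hardly differs from an abundant parent gene, which is why the bases that tell them apart are shown. Gapdh is a glycolytic enzyme and mt-Nd3 a subunit of respiratory complex I that is encoded by the mitochondrial genome. The sequences are those of GENCODE M21 transcripts, 5′ to 3′, and the capital marks the differing base. Gm28438 (chr1:24612775-24613119) differs from mt-Nd3 in 345 bases by T3C, and Gm13394 (chr2:28933610-28934609) from Gapdh in 1000 aligned bases by A346C, counted from 1 at the 5′ end of the copy with the parent's base first. Gm12671 (chr4:91851668-91852669) has no mismatch with Gapdh over its 1002 bases. Gm7336 (chr7:51746647-51747878) has 1 mismatch and 2 gap bases over 1232.
mt-Nd3: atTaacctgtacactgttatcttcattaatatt
Gm28438: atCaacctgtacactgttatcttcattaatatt
Gapdh: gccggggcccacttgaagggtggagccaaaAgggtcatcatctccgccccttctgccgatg
Gm13394: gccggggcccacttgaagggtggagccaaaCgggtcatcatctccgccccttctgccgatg

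Gm12671 held 6449, 4833, 8390.2, 6861 and 8456 in DKO KD libraries 2, 3, 23, 24 and 47, and was listed at 0 in all 5 CSB KD libraries (limma adjusted p = 0.0409). Gm7336 was the reverse, at 9.36, 7.48, 0, 0 and 0 in the DKO KD libraries and at 3301, 1719, 2903, 1626 and 1393 in CSB KD libraries 13, 18, 19, 43 and 44 (log2 difference −9.72, SE 1.86, adjusted p = 0.0376). The values were thus listed under Gm12671 in DKO KD and under Gm7336 in CSB KD libraries, though these copies do not differ over 1002 bases, so reads there cannot be told apart. Gm13394, chosen after its values were seen, followed Gm7336, with 9.36, 11.2, 0, 10.0 and 0 in the DKO KD libraries and 13226, 8204, 11919, 8857 and 8824 in the CSB KD libraries, and was not called (limma adjusted p = 0.324). Over all 40 libraries Gm12671 was at 0 in 12, and in those Gm7336 was at 1349 or more and Gm13394 at 8204 or more. In the other 28 Gm12671 held 4398 to 10468, and Gm7336 at most 31.9. The 12 were 5 of 5 CSB KD, 4 of 6 CSB SD, 1 of 6 INDY KD and 2 of 4 WT KD libraries, and no DKO library.

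Gm28438 was listed at 0 in all 5 DKO KD libraries and held 18385, 7484, 10830.0, 6206 and 5489 in CSB KD libraries 13, 18, 19, 43 and 44 (limma adjusted p = 0.0316). The calls of Gm12671, Gm7336 and Gm28438 were all lost when any 1 CSB KD library, or DKO KD 2, 23, 24 or 47, was left out. Without DKO KD 3 those of Gm12671 and Gm28438 were lost too. The calls of Gm12671, Gm7336 and Gm28438 held in 6, 7 and 9 of 20 alternatives. Over the series Gm28438 was under 200 in 15 libraries: 5 of 5 DKO KD, 4 of 4 DKO SD, 3 of 6 INDY KD, 1 of 4 WT KD and 2 of 6 INDY SD. It was at 5462 or more in the other 25. The parent mt-Nd3 was at 19764 to 44080 in the 15 and at 8139 to 21514 in the 25.

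The parents stood apart between the groups too, and this was not so for the sums of parent and copies. Gapdh alone held 27631, 25014, 24215, 26280.0 and 27178 in DKO KD libraries 2, 3, 23, 24 and 47, against 23515, 15012, 20420.0, 16569 and 16802 in CSB KD libraries 13, 18, 19, 43 and 44. Every DKO KD library was above every CSB KD library, and the log2 difference was +0.51 (SE 0.13, limma adjusted p = 0.51). Gapdh made up 73.8% to 83.3% of the sum over Gapdh and its 21 closest copies (99% identity or more) in DKO KD, and 57.8% to 61.9% in CSB KD libraries. That sum was 33232 ± 2116 in DKO KD and 30967 ± 6458 in CSB KD libraries (SD, n = 5 each), with a log2 difference of +0.12 (95% interval −0.087 to 0.334) and overlapping ranges.

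mt-Nd3 alone held 31973, 29412, 28507, 34859 and 26821 in the DKO KD libraries, against 21514, 16717, 17598, 14266 and 15796 in the CSB KD libraries, again with no overlap. The log2 difference was +0.83 (SE 0.23, limma adjusted p = 1). Together with Gm28438 it was 30315 ± 3150.0 in DKO KD and 26857 ± 7928 in CSB KD libraries (SD, n = 5 each), a log2 difference of +0.21 (95% interval −0.113 to 0.540). CSB KD 13 alone had a larger sum than any DKO KD library. Values of single members of these families are uncertain wherever the counting could divide reads between near-identical sequences. With the copies summed into their parents, 3 genes were called: Slc13a5, Catspere1 and Ifi202b.

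**Figure D3:**
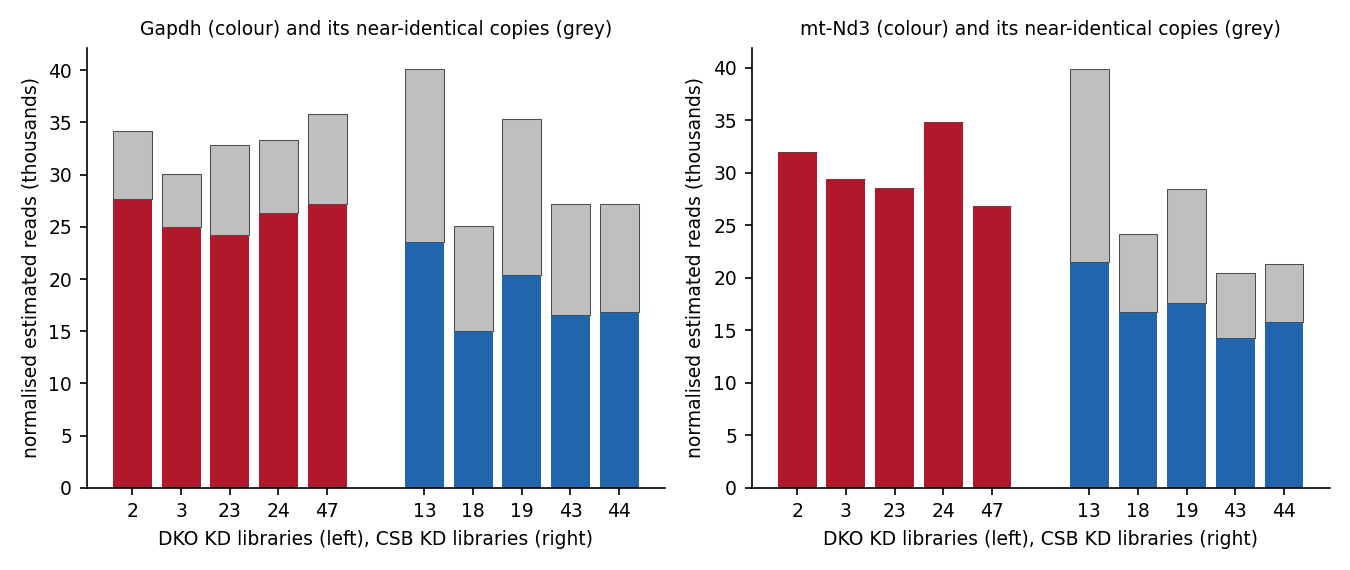
Normalised estimated reads (axis in units of 1000) of Gapdh (left panel) and mt-Nd3 (right panel) in colour, with their near-identical copies stacked in grey, for DKO KD libraries (red, left in each panel) and CSB KD libraries (blue, right). The coloured parts of the groups do not overlap, whereas the full bars do, with means of 33232 in DKO KD and 30967 in CSB KD libraries for the Gapdh family and of 30315 in DKO KD and 26857 in CSB KD libraries for the mt-Nd3 family.

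A run of neighbouring genes on chromosome 19 (chr19:6012620-6141548, 128.9 kb, from Gm10814 to Arl2) was noticed among the genes with the smallest p. It was set apart after its values were seen, so no test was made of it as a group. All 12 tested genes had an unadjusted p under 0.05 and were higher in DKO KD, by log2 differences of 0.69 to 1.81 (median 0.81, SE 0.28 to 0.69), and none was called. In all 12, DKO KD libraries 2, 3, 23 and 24 were above every CSB KD library, which held for 117 (0.548%) of all tested genes. On one side the run was adjoined by Capn1, a calcium-dependent protease, which overlaps Gm10814 and differed by +0.33 (SE 0.16, unadjusted p = 0.042 in limma), with overlapping groups. Beyond it Pola2 differed by +0.13 (SE 0.12) and Cdc42ep2 by +0.12 (SE 0.15). On the other side Ppp2r5b differed by −0.08 (SE 0.08) and Atg2a by −0.07 (SE 0.11).

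Znhit2, a zinc-finger protein that binds the R2TP chaperone complex, held 462, 412, 422, 423 and 229 in DKO KD libraries 2, 3, 23, 24 and 47, against 221, 169, 248, 196 and 174 in CSB KD libraries 13, 18, 19, 43 and 44. Library 47 was the only DKO KD library among the CSB KD values. Its log2 difference was +0.92 (SE 0.29, limma adjusted p = 1), and on the standard diet DKO minus CSB was +0.95 (SE 0.30). Snx15, a sorting nexin of endosomes, held 565, 732, 639, 684 and 300.3 in the DKO KD libraries and 384, 316, 396, 265 and 248 in the CSB KD libraries (log2 difference +0.82, SE 0.29). Vps51, a subunit of the tethering complex that serves traffic from endosomes to the Golgi, held 1556, 1756, 1849, 1604 and 953 in the DKO KD libraries and 1001, 807, 937, 714 and 791 in the CSB KD libraries (log2 difference +0.83, SE 0.30). In both, library 47 again fell within the CSB KD range. Vps51 overlaps Tm7sf2 and Gm28374 on the same strand, so their reads may be shared.

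Over the 11 protein-coding genes of the run, the mean log2 level was 8.90, 8.97, 8.86, 8.97 and 7.79 in DKO KD libraries 2, 3, 23, 24 and 47, against 7.95, 7.70, 8.02, 7.69 and 7.69 in CSB KD libraries 13, 18, 19, 43 and 44. Across all 40 libraries no level lay between 8.02 and 8.72, with 17 libraries above that gap and 23 below it. Above it were 4 of 5 DKO KD and 3 of 4 DKO SD libraries, and none of the 5 CSB KD or the 6 CSB SD libraries. The split was not one of genotype alone: 1 of 6 INDY KD, 2 of 4 WT KD, 5 of 6 INDY SD and 2 of 4 WT SD libraries were above it. The highest levels were 9.64 in WT KD 28 and 9.45 in INDY SD 9.

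**Figure D4:**
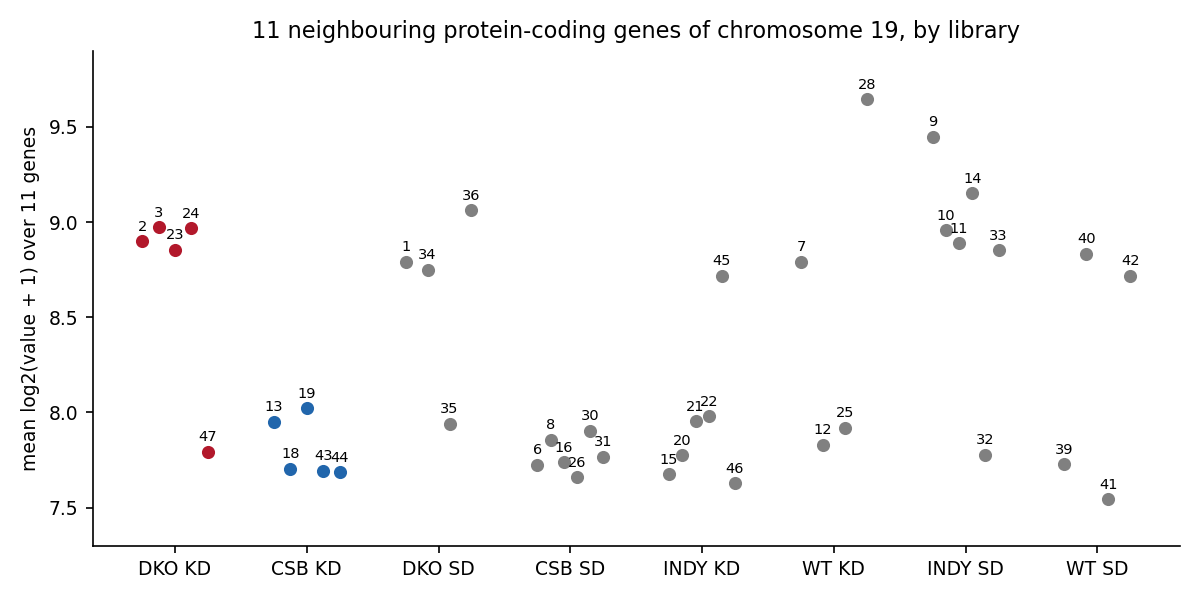
Mean log2(value + 1) over the 11 protein-coding genes of the chromosome 19 run in each of the 40 libraries, by group, with library numbers above the points. The libraries fall on both sides of an empty range between 8.02 and 8.72. All 11 CSB libraries are below it, and 7 of the 9 DKO libraries above it.

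A cluster of zinc-finger genes on chromosome 2 (chr2:175166255-177578210) divided the CSB KD group instead, and other groups of the series as well. It was also set apart after its values were seen, and since its members are close paralogs the division of reads among them is uncertain. In 20 of its 41 tested genes (48.8%) CSB KD libraries 13, 18 and 19 were all below the other 7 libraries, which held for 108 (0.506%) of all tested genes. Zfp973 held 402, 404, 416, 412 and 341 in DKO KD libraries 2, 3, 23, 24 and 47, against 111, 183, 227, 482 and 488 in CSB KD libraries 13, 18, 19, 43 and 44. Gm14296 held 887, 904, 1078, 1078 and 878 in the DKO KD libraries and 508, 495, 504, 939 and 1074 in the CSB KD libraries. CSB KD 43 and 44 were thus at the DKO KD level or above it. Over the 30 protein-coding genes of the cluster, the mean log2 level was 8.28, 8.09 and 8.13 in CSB KD 13, 18 and 19. Low levels also occurred outside CSB KD, at 8.43, 8.23 and 8.28 in CSB SD 6, 30 and 31, 8.40 in DKO SD 34 and 8.24 in WT KD 25. Every remaining library of the series was at 8.70 or more. The median log2 difference of the 41 genes was +0.38, with 13 higher at an unadjusted p under 0.05 and none called.

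Among the other genes with the smallest p, none was called. Ppp1r26, a regulatory subunit of protein phosphatase 1, held 517, 532, 437, 524 and 490.0 in DKO KD libraries 2, 3, 23, 24 and 47, against 543, 671, 639.9, 702 and 601 in CSB KD libraries 13, 18, 19, 43 and 44. Every DKO KD library was below every CSB KD library. The log2 difference was −0.33 (SE 0.08, limma adjusted p = 0.42), and −0.03 on the standard diet. Nnt, the proton-pumping transhydrogenase that makes NADPH in mitochondria, held 478, 442, 593, 719 and 430.5 in the DKO KD libraries and 329.7, 234, 442, 233 and 209.5 in the CSB KD libraries (log2 difference +0.91, SE 0.23, limma adjusted p = 0.68). CSB KD 19 reached the lower DKO KD values. This is 1 of 2 gene IDs of the same symbol and place, and the sums over both were 703, 669.8, 864, 1013 and 666 in the DKO KD libraries and 359.8, 398, 688, 345 and 387 in the CSB KD libraries.

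Zbtb7c, a zinc-finger transcription factor, held 20.5, 39.5, 29.7, 26 and 21.4 in the DKO KD libraries and 37.2, 54.8, 57.7, 89.6 and 69.8 in the CSB KD libraries. Only DKO KD 3 reached into the CSB KD range. Zbtb7c differed by −1.13 on the log2 scale (SE 0.31, limma adjusted p = 1), while on the standard diet it was +0.75, and the difference between the diets was −1.87 (limma adjusted p = 0.8). Krt10, a keratin, had 35.9 to 52.1 in DKO KD and 54 to 85.8 in CSB KD libraries, and Ky, a muscle protein, had 38.5 to 49.8 in DKO KD and 51.9 to 123 in CSB KD libraries, both with no overlap. Their log2 differences were −0.49 (SE 0.16) for Krt10 and −0.71 (SE 0.24) for Ky. Lower in DKO KD on average were also Pcdhb17, a clustered protocadherin (−0.29, SE 0.09), Sept1, a septin (−0.58, SE 0.20), and Armc7 (−0.42, SE 0.15). Higher on average were Ptpn18, a tyrosine phosphatase (+1.06, SE 0.33), Mrpl51, a protein of the mitochondrial ribosome (+0.30, SE 0.10), Zfp516 (+0.54, SE 0.19) and Eps8l1 (+1.73, SE 0.61), all with overlapping groups. Copa, Gapdh, Sept1 and Armc7 each overlap an expressed gene on the opposite strand, whose reads cannot be told apart without strand.

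The neighbourhoods of the targeted genes held no further call. Within 15 Mb of Slc13a5, 496 genes were tested, and the smallest p beside Slc13a5 belonged to Rps6kb1, the kinase S6K1 of the mTOR pathway, with 1323 to 1458 in DKO KD and 1418 to 1739 in CSB KD libraries (log2 difference −0.20, SE 0.08), and to Nsrp1, a splicing regulator (−0.23, SE 0.11). Within 15 Mb of Ercc6, 245 genes were tested, led by Ptger2, a prostaglandin E2 receptor (+0.58, SE 0.25), and Tmem273 (+0.92, SE 0.44), which both have values under 20 in these libraries.

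Of all the gene lists considered, 34 in number, the single called member was Slc13a5. Counts below are to be read beside 10880 of 21367 tested genes with a difference above 0, a median of 0.0026, and 1.02% higher and 0.707% lower at an unadjusted p under 0.05. Of 24 tested genes for the transport and use of citrate, 16 had a difference above 0 and the median was +0.06. Acss2, which makes acetyl-CoA from acetate, differed by +0.12 (SE 0.09). Slc13a5 alone passed an unadjusted p of 0.05.

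Lists of genes that use the acetyl-CoA made from citrate had medians near that of all genes. In fatty acid synthesis and elongation 12 of 24 were above 0 and the median was −0.00. Acaca, the carboxylase that commits acetyl-CoA to fatty acids, differed by +0.09 (SE 0.14). Mlxipl, the glucose-responsive transcription factor ChREBP, held 14.5, 11.1, 9.86, 11.8 and 7.93 in DKO KD libraries 2, 3, 23, 24 and 47, against 39.5, 12.7, 25.9, 23.6 and 35.1 in CSB KD libraries 13, 18, 19, 43 and 44. Only CSB KD 18 reached down to the DKO KD values. Its log2 difference was −1.17 (SE 0.34, limma adjusted p = 1). Hacd2, an elongation enzyme, differed by +0.27 (SE 0.15).

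In cholesterol synthesis and sterol control 25 of 32 genes were above 0, with a median of +0.06. Tm7sf2, a sterol reductase, was the 1 gene higher at an unadjusted p under 0.05, and it belongs to the chromosome 19 run: 485, 465, 397, 458 and 201 in the DKO KD libraries, against 273, 196, 279, 188 and 209 in the CSB KD libraries (log2 difference +0.76, SE 0.31). Library 47 was again within the CSB KD range. Dhcr7, the last enzyme of the pathway, differed by +0.26 (SE 0.15), and Acat2, its first, by +0.17 (SE 0.17).

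For ketone bodies 5 of 13 tested genes were above 0, and the median was −0.04, or +0.07 without DKO KD 23. Slc16a1, the monocarboxylate transporter MCT1 that carries ketone bodies into the brain, differed by +0.09 (SE 0.10), and its chaperone Bsg by +0.15. Aacs, which activates acetoacetate in the cytosol for lipid synthesis, was lower at an unadjusted p of 0.011 (log2 difference −0.36, SE 0.13, limma adjusted p = 1). Among genes of fatty acid oxidation and targets of PPAR, 27 of 38 were above 0, with a median of +0.04. Ppara, the receptor that drives this programme in liver, differed by +0.49 (SE 0.22, unadjusted p = 0.032 in limma), Fabp3 by +0.22 (SE 0.12) and Cpt1a, which lets long fatty acids into mitochondria, by +0.17 (SE 0.10).

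Central energy metabolism gave no call. In glycolysis 18 of 23 genes were above 0, with a median of +0.07. Gapdh, described with its copies, had the smallest p, followed by Tpi1 at +0.18 (SE 0.12), while Hk1, the main hexokinase of brain, differed by −0.02 (SE 0.08). In the TCA cycle 19 of 25 were above 0, with a median of +0.03, and Cs, citrate synthase, differed by +0.01 (SE 0.08), Suclg2 by +0.26 (SE 0.13) and Sdhb by +0.21 (SE 0.14). Of 45 nuclear genes of oxidative phosphorylation 39 were above 0, with a median of +0.06 (median SE 0.12) and none past an unadjusted p of 0.05. The mean log2 level of that list was 11.415 to 11.671 in DKO KD libraries. CSB KD 13 and 19 (11.86 and 11.69) were above that range, and CSB KD 18, 43 and 44 (11.229, 11.291 and 11.274) below it.

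Of the 13 mitochondrially encoded mRNAs 9 were above 0, and mt-Nd3 and mt-Co2 went opposite ways. mt-Co2, a subunit of cytochrome c oxidase, held 1461, 2576, 2962, 3369 and 3997 in DKO KD libraries 2, 3, 23, 24 and 47, against 7746, 6835, 5854, 4733 and 3078 in CSB KD libraries 13, 18, 19, 43 and 44. Only CSB KD 44 lay among the DKO KD values. The log2 difference was −0.98 (SE 0.35, limma adjusted p = 1), while mt-Nd1, which lies on the same genome, differed by +0.01 (SE 0.13). With its copy summed the difference of mt-Nd3 was +0.21. Copies of mt-Co2 were not looked for, so how its reads were divided is not known. Over the series mt-Co2 ranged from 1329 in WT KD 7 to 9286 in WT KD 12.

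Lists tied to CSB function had medians near 0. In nucleotide excision repair 15 of 36 were above 0, with a median of −0.01 and none past an unadjusted p of 0.05. Ercc1, part of the nuclease that cuts at the damage, differed by −0.03 (SE 0.12), Usp7, a deubiquitinase that stabilises CSB, by −0.16 and Pold1, a subunit of the DNA polymerase that fills the gap, by −0.30 (SE 0.22). Of 27 tested p53 targets 10 were above 0. Of 37 genes of RNA polymerase I and ribosomal RNA processing 11 were above 0, with a median of −0.06. Nvl, described with chromosome 1, was the 1 gene lower at an unadjusted p under 0.05.

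**Figure D5:**
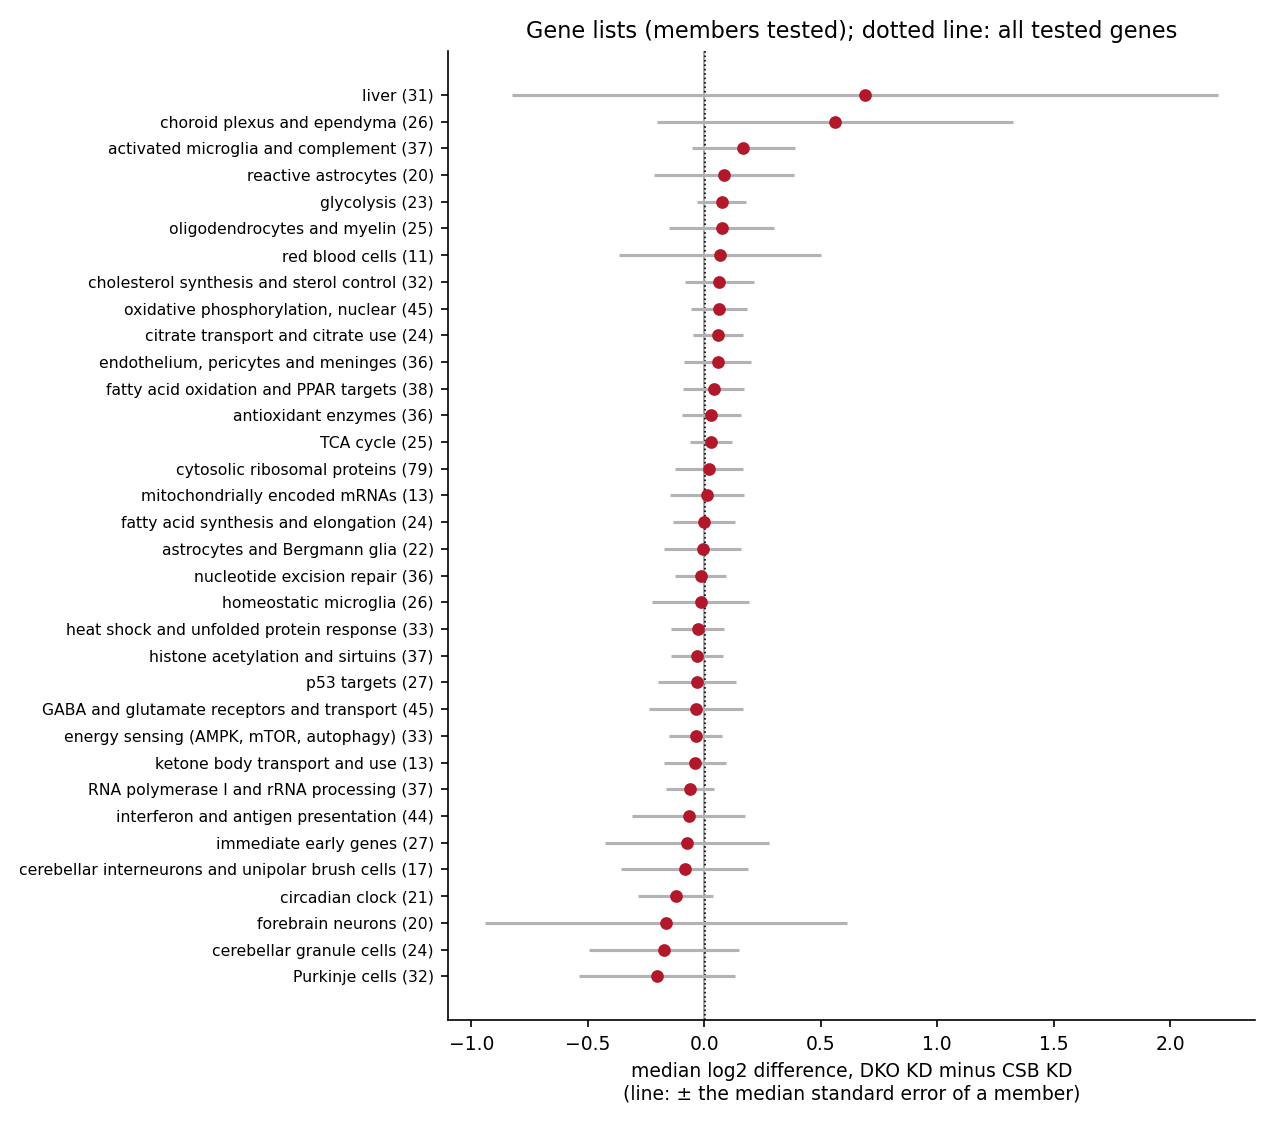
Median log2 difference, DKO KD minus CSB KD, of the tested members of the 34 gene lists (number of members in brackets). Points are medians, the grey lines extend by the median standard error of a member on either side, and the dotted line is the median of all tested genes, 0.0026. The highest medians are +0.69 for liver, with a line of 1.52 on either side, and +0.56 for choroid plexus and ependyma, with a line of 0.77.

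In bulk samples fewer cells of a type and less RNA per cell cannot be told apart, which bears on all lists of cell types. Of 37 genes of activated microglia and complement 33 were above 0, with a median of +0.17, beside a median SE of 0.22. Axl, a receptor of microglia for dying cells, had an unadjusted p of 0.049 (log2 difference +0.18, SE 0.09, limma adjusted p = 1), Gpnmb differed by +0.62 (SE 0.36), and Cst7, a cystatin of disease-associated microglia, by +0.33 (SE 0.42). Of 26 genes of homeostatic microglia 11 were above 0, with a median of −0.02, and of 44 genes of interferon response and antigen presentation 15, with a median of −0.07.

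Of 32 Purkinje cell genes 3 were above 0, with a median of −0.20, and of 24 granule cell genes 2, with a median of −0.17, beside median SEs of 0.33 and 0.32. Foxp2, a transcription factor of Purkinje cells, was the 1 Purkinje gene lower at an unadjusted p under 0.05 in limma (log2 difference −0.56, SE 0.24). On the standard diet DKO minus CSB was +0.68 for Foxp2, against the direction of its list. The list medians on that diet were −0.55 for Purkinje cell genes and −0.55 for granule cell genes, beside +1.90 for the forebrain list. Pcp2 held 11.5 in DKO SD 1, against 1994, 713 and 3696 in DKO SD 34, 35 and 36. Whether the tissue make-up of that library bears on these medians was not tested. Pcp2, a Purkinje cell protein, differed by −0.27 (SE 0.77) and Gad1, the enzyme that makes GABA, by −0.20 (SE 0.16). The mean log2 level of the Purkinje list was 11.16, 11.34, 11.13, 11.11 and 11.04 in DKO KD libraries 2, 3, 23, 24 and 47, against 10.96, 11.35, 10.98, 11.70 and 11.70 in CSB KD libraries 13, 18, 19, 43 and 44. CSB KD 18, 43 and 44 were above all DKO KD libraries, and CSB KD 13 and 19 below them. Of 21 genes of the circadian clock 2 were above 0, with a median of −0.12 beside a median SE of 0.16. Cry2 differed by −0.20 (SE 0.09), Per1 by −0.48 (SE 0.23) and Arntl by −0.03 (SE 0.13). The clock median was +0.06 for DKO minus CSB on SD and +0.12 for INDY minus WT on KD. On SD Cry2 differed by +0.10 and Per1 by +0.40, against their direction on KD.

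Markers of other tissues varied widely between the libraries of a group. All 26 genes of choroid plexus and ependyma and all 31 of liver had differences above 0, with medians of +0.56 and +0.69, beside median SEs of 0.77 and 1.52. None passed an unadjusted p of 0.05. Ttr, the transthyretin of choroid plexus and liver, held 59294, 8403, 7103, 3210.5 and 13869 in DKO KD libraries 2, 3, 23, 24 and 47, against 23.9, 12033, 374, 10280.0 and 15648 in CSB KD libraries 13, 18, 19, 43 and 44. The highest value was in DKO KD 2 and the lowest in CSB KD 13, and the groups overlap (log2 difference +2.62, SE 1.52). Kcne2, a potassium channel subunit of choroid plexus, differed by +2.01 (SE 1.24), Fga, the fibrinogen alpha chain, by +1.85 (SE 1.63) and Alb, albumin, by +0.70 (SE 1.89).

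The mean log2 level of the liver list was 5.80, 6.24, 3.27, 6.88 and 2.63 in DKO KD libraries 2, 3, 23, 24 and 47, against 3.88, 6.34, 2.66, 3.65 and 4.06 in the CSB KD libraries. That of the forebrain list was 6.94, 6.12, 6.04, 6.10 and 8.53 in the DKO KD libraries, against 6.00, 7.88, 7.86, 6.64 and 6.33 in the CSB KD libraries. Forebrain levels were thus highest in DKO KD 47 and in CSB KD 18 and 19, and liver levels in DKO KD 2, 3 and 24 and in CSB KD 18. Nrgn, a calmodulin-binding protein of forebrain neurons, differed by −1.08 (SE 0.92) and Nptx1, a neuronal pentraxin, by −0.27 (SE 0.22). With the forebrain level as a covariate 4 genes were called, Slc13a5, Catspere1, Ifi202b and Gm28438, and the same 4 with forebrain, choroid plexus and liver levels together.

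DKO against CSB on the standard diet, which uses other libraries, gave 1 call (0.00468%), Slc13a5, with 2908 genes at an unadjusted p under 0.05. INDY against WT on KD gave 2 calls (0.00936%): Slc13a5 and Heg1, a cardiovascular transmembrane protein, at +0.68 (SE 0.12, limma adjusted p = 0.0304). For DKO KD minus CSB KD Heg1 differed by −0.10 (SE 0.12). Of the 369 genes with an unadjusted p under 0.05 on KD, 208 (56.4%) had the same direction in DKO minus CSB on SD, beside 51.7% of all tested genes. For INDY minus WT on KD it was 180 (48.8%), beside 46.8%. No gene was called for a difference of the DKO and CSB contrast between the diets, or for a difference from the INDY and WT contrast, where limma gave 1280 and 981 genes at an unadjusted p under 0.05. mt-Nd3 (+1.12) and Znhit2 (+0.95) had the same direction on SD as on KD, and Ptpn18 (−1.31) and Eps8l1 (−1.36) the opposite one in INDY minus WT on KD.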

How the data were processed

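The labels' protocols describe rRNA-depleted total RNA of cerebellum. The submitters' processing notes name Bowtie2, Salmon and DESeq2 without versions or order, and the genome build mm9. The table the authors deposited holds a normalised signal for 54331 gene IDs and 40 libraries. It was taken to be estimated counts divided by a size factor per library, from the tools named and from values that are not whole and have unequal sums. Low values were within 0.02 of whole multiples for 11.0% to 60.1% of genes per library, so reads were not recovered and no count test was run. Gene IDs were named and placed with GENCODE M21 (GRCm38), of which 53444 matched with their version.

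Libraries were grouped by their titles. All 8 groups entered 1 fit of log2(value + 1) in limma 3.58.1 (R 4.3.3; trend and robust), with genes at 10 or more in 4 or more libraries and Benjamini-Hochberg adjustment over 21367 genes. The script was tested on simulated data. Copies were aligned with blastn 2.17.0+ and joined at 99% identity over 95% of the copy. Python 3.11.15 with matplotlib 3.10.9 made the figures.

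The members, gene lists and intervals were chosen with earlier results of these data known. Named were Slc13a5, Ercc6, all calls, 12 genes per direction with the smallest p (mean of 20 or more, no clone or model name), for 15 of 34 lists the first member and the 2 with the smallest p, and 2 genes within 15 Mb of each targeted gene. 1 gene that this rule names is not reported here. Further genes were picked with their values in view.

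Alternatives were pseudocounts of 0.5 and 5, no filter, a filter over the compared groups, rescaling by the median ratio (factors 1.0019 to 1.0048), no trend, marker levels as covariates, only the compared groups, and leaving out each library. Summing the copies and testing protein-coding genes alone were added after seeing the data.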

Additional observations from a re-analysis of the deposited data

Results flagged for a closer look

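In 18 of 172 groups of 5 values, 1 library lay further from the other four than Dixon's 95% limit of 0.71 allows. The ratio is its gap to the nearest value, divided by the whole range. Ratios of genes were taken on the scale of log2(value + 1), while the gene values printed below are not logged. Chance gives about 1 such group in 20, and many of these values move together, so the number is a description.

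In the DKO KD group library 3 stood apart in Catspere1 (7.52, ratio 0.908), Ifi202b (0, ratio 0.863) and Catspere2 (301, ratio 0.739), all low. Library 47 stood apart, low, in Znhit2 (229, ratio 0.84), Vps51 (953, ratio 0.74) and Tm7sf2 (201, ratio 0.772) of the chromosome 19 run. It was also the one library with Slc13a5 above 0 (0.934, ratio 1). Library 23 was low in Krt10 (35.9 against 47.4 to 52.1, ratio 0.744).

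In the CSB KD group library 18 was low in Slc13a5 (93.2 against 135 to 155, ratio 0.719) and was the one library with Ifi202b above 0 (0.913, ratio 1). Library 19 was low in Ercc6 (382 against 596 to 695, ratio 0.743) and Sept1 (27.1 against 35.6 to 39.5, ratio 0.722). Library 13 was low in Nvl (1347, ratio 0.758) and Nrgn (354 against 605 to 704, ratio 0.778), and library 43 high in Suclg2 (649 against 469 to 502, ratio 0.789). Library 13 was also high in the mean log2 levels of the mitochondrially encoded mRNAs (14.9 against 14.2 to 14.4, ratio 0.739), of nucleotide excision repair (9.29 against 9.14 to 9.18, ratio 0.717) and of activated microglia and complement (9.15 against 8.40 to 8.57, ratio 0.78). What sets these libraries apart was not tested.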

How the results depend on the processing

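The 6 calls of DKO KD against CSB KD became 3 with a pseudocount of 0.5, 3 without a filter, 3 with the copies summed and 2 among protein-coding genes. Leaving out 1 library gave 1 to 6: 1, Slc13a5, without DKO KD 2, 23, 24 or 47, and 3, Slc13a5, Catspere1 and Ifi202b, without any CSB KD library. A fit of only these groups called 6, but lost Catspere1 and Ifi202b and gained mt-Nd3 and Gm13394. Over the alternatives that gave a value, Slc13a5 was called in 22 of 22 (adjusted p 2.23e-25 to 1.84e-08), Catspere1 in 16 of 21 (3.24e-09 to 1), Ifi202b in 16 of 22 (1.17e-07 to 1), Gm28438 in 9 of 20, Gm7336 in 7 of 20 and Gm12671 in 6 of 20. The lowest adjusted p of Catspere1 and of Ifi202b came without DKO KD 3, the library at odds with the others, so it is no support. The cause of these changes was not tested.

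DKO SD against CSB SD, with 1 call, gave 3 without a filter, 3 with the forebrain covariate, 3 with all covariates and 2 with only its groups. INDY KD against WT KD, with 2 calls, gave 5 without a filter, 1 without trend, 7 with all covariates, 1 with only its groups, 4 among protein-coding genes, and 1 to 24 with 1 library left out (24 without WT KD 28). The difference between the diets gave 0 to 2 with 1 library left out (2 without DKO KD 3). The difference from INDY and WT gave 1 with a pseudocount of 5, 1 without a filter, 1 without trend, and 0 to 3 with 1 library left out (3 without CSB KD 13).

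The median of the ketone body list turned to +0.07 without DKO KD 23. Alb turned to −0.42 and Hk1 to 0.00049 with all covariates. With 1 library left out, differences near 0 changed sign in 7 genes: Ercc6 (−0.020 to 0.235), Alb (−0.032 to 1.78), Hk1 (−0.076 to 0.038), Ercc1 (−0.107 to 0.047), Arntl (−0.070 to 0.0030), mt-Nd1 (−0.065 to 0.167) and Cs (−0.028 to 0.030).

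No paired analysis was possible because the library numbers are unique and no number is shared between the groups. Depth is unknown, so no counting interval is given.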
